A study of Caenorhabditis elegans with 2 samples.

Results

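The genes described here are Y53G8AR.9, the gene whose tagged protein was precipitated, and 7 CCCH zinc finger genes of the oocyte and early embryo: mex-1, mex-5, mex-6, pos-1, oma-1, oma-2 and pie-1. These 8 of 19973 protein-coding nuclear genes were picked by name, not by their signal, and the annotation held all 8. Chromatin immunoprecipitation sequencing (ChIP-seq) had been done on whole Caenorhabditis elegans of strain RW12264, allele st12264, in which CRISPR had placed TY1, EGFP and 3xFLAG at Y53G8AR.9. The worms were young adults 64 hours old, grown from larvae that were starved after bleaching, and the antibody recognised GFP. The samples are 1 group of 2 biological replicates, so no conditions were compared and no p-value is given. Chromatin came from every cell of the animal, so weak binding in many cells and binding in few cells cannot be told apart.

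A CCCH finger is a short stretch of protein in which 3 cysteines and a histidine hold a zinc ion. Fingers of this kind in germ-line proteins bind messenger RNA, often in the 3′ untranslated region, and control its translation and stability. In the C. elegans germ line, OMA-1 and OMA-2 are redundant regulators of oocyte maturation, MEX-5 and MEX-6 set up the anterior-posterior asymmetry of the zygote, MEX-1 and POS-1 control maternal messages and cell fate in the embryo, and PIE-1 keeps transcription low in the germ-line blastomeres. The annotation names the product of Y53G8AR.9 only as a C3H1-type domain-containing protein.

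The number of fingers set the tagged protein apart from the other members. A search for a cysteine, 7 to 10 residues, a cysteine, 4 to 6 residues, a cysteine, 3 residues and a histidine found 3 fingers in the 315 residues of Y53G8AR.9 and 2 in each of the other 7 proteins. In mex-1, pos-1, oma-1 and oma-2 both fingers had the spacing 8, 5 and 3, with 22 or 23 residues between them. In mex-5 and mex-6 the first spacing was 9 and 10 residues in the 2 fingers, and in pie-1 it was 8 and 7, with 66 residues between the fingers. All 3 fingers of Y53G8AR.9 had a first spacing of 7, followed by 5, 4 and 6 residues. The first of them had the same spacing, 7, 5 and 3, as the second finger of pie-1. From the first finger to the last, oma-1 and oma-2 were identical at 54 of 62 aligned positions (87.1%), mex-5 and mex-6 at 56 of 66 (84.8%), and mex-1 and pos-1 at 44 of 63 (69.8%). How reads that match several places were placed is not given in the sources used here, and its part in the values of these pairs was not tested.

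The DNA that codes for the first finger of each gene is shown to let the spacings be read, since every codon is 3 bases. It was read from the RefSeq WBcel235 genome (the same assembly as ce11), 5′ to 3′ on the coding strand, with the codons of the cysteines and the histidine in capitals. The places are III:3321015-3321071 (minus strand) for Y53G8AR.9, II:11969189-11969248 for mex-1, V:8414403-8414462 for pos-1, III:12427255-12427314 for pie-1, IV:13354648-13354710 for mex-5, II:9525157-9525219 for mex-6, IV:8889531-8889590 for oma-1 and V:8029935-8029994 for oma-2, all on the plus strand except the first.
Y53G8AR.9: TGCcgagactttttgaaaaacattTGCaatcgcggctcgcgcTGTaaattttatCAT
mex-1: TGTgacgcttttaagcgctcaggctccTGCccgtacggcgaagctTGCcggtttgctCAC
pos-1: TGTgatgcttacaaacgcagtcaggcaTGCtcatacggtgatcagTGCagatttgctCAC
pie-1: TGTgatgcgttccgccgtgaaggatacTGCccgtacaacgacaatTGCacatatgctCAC
mex-5: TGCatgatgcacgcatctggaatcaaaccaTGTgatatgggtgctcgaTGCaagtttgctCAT
mex-6: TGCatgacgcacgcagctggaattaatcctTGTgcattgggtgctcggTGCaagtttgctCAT
oma-1: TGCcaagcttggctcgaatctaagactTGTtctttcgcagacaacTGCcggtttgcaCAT
oma-2: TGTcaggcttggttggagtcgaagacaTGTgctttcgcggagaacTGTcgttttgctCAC

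Peaks lay at 5 of the 8 genes: mex-1, mex-5, pos-1, oma-2 and pie-1. The tagged gene Y53G8AR.9 itself, mex-6 and oma-1 had none. A peak here is a region of the conservative list, the authors' 2742 peaks that passed a threshold on the irreproducible discovery rate (IDR, low where a region holds a similar rank in a pair of data sets; the highest IDR in this list was 0.00998), and it was counted for a gene when it touched the gene or the 500 bp on either side. By the same rule 2626 of all 19973 coding genes had a peak (13.1%), and among the 10395 coding genes between 1169 and 3694 bp long, the range of these 8, 11.9% did. The 5 genes held 8 peaks, a pair each at mex-1, mex-5 and pos-1 and 1 each at oma-2 and pie-1, and all 8 were 320 bp wide. With only 8 genes, chosen with results of these data already known, the count is a description.

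The strongest signals of pos-1 and mex-1 were above the upper quartile of all 2742 conservative peaks (97.6). That of oma-2 was just above their median (70.4), and those of pie-1 and mex-5 were below it. Signals are the authors' values per peak, in arbitrary units. They come from the replicates combined wherever no single replicate is mentioned, and ranks are by signal. The strongest peak of pos-1 had a signal of 132 (rank 328 of 2742) and that of mex-1 105 (rank 585). The strongest peaks of oma-2 (71.4, rank 1329), pie-1 (68.6, rank 1461) and mex-5 (63.6, rank 1697) were below the median of 80.3 over the 2626 genes with a peak, each taken at its strongest. Among those genes pos-1 ranked 437 and mex-1 759, while oma-2, pie-1 and mex-5 ranked 1592, 1730 and 1971. Combined signals have no error of their own, so the values of each replicate are given with each member peak.

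**Figure D1:**
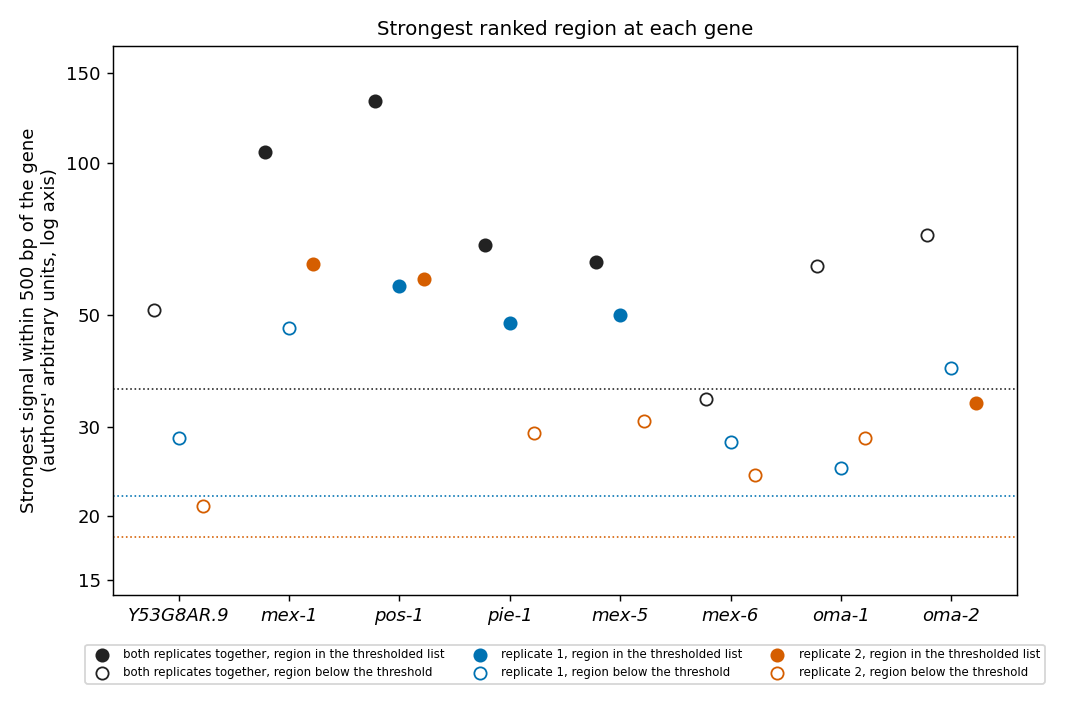
Strongest ranked region within 500 bp of each gene (authors' signal in arbitrary units, log axis) for both replicates together and for each replicate; filled points are regions in the thresholded list of that data set, with the conservative list for both together, and dotted lines are the medians over protein-coding genes that have a region (35.7 together, 21.9 in replicate 1, 18.2 in replicate 2). For pos-1 all 3 points are filled, for Y53G8AR.9, mex-6 and oma-1 none is, and the open black point of oma-2 (72.1) is a region at the gene end, not its conservative peak (71.4).

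Upstream of the gene start, peaks lay at mex-1, pos-1, oma-2 and mex-5, and all 4 were between coding genes. The peak of mex-1, which encodes a regulator of maternal messages, was at II:11968281-11968600 with its summit 196 bp before the gene start and a signal of 105. Replicate 1 alone gave 47.1 there and replicate 2 gave 63.0, and only the region of replicate 2 was in that replicate's own thresholded list, since replicate 1 had an IDR of 0.0108. The upstream peak of pos-1 was at V:8413668-8413987, 258 bp before the start, with a signal of 78.5. Replicate 1 gave 38.0 (IDR 0.0123) and replicate 2 gave 27.6 (IDR 0.722), and neither was in its own list. The same peak lay within 500 bp of vha-18, a V-ATPase subunit gene that starts on the opposite strand 603 bp from the start of pos-1.

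The single peak of oma-2 was at V:8028830-8029149, 449 bp before the start, with a signal of 71.4. Replicate 1 gave 39.3 at an IDR of 0.0100, just past the highest IDR of 0.00999 in its own list, and replicate 2 gave 28.1 at 0.0197. This peak also fell within 500 bp of F43H9.4, the gene just before oma-2 on the same strand. The end of F43H9.4 is 649 bp before oma-2, so the summit lay nearer to that end than to the start of oma-2. The upstream peak of mex-5 was at IV:13353265-13353584, 298 bp before the start of mex-5 and 232 bp from that of rec-8, which encodes a meiotic cohesin subunit and lies on the opposite strand. Its signal was 63.6, with 35.7 in replicate 1 (IDR 0.0962) and 30.9 in replicate 2 (IDR 0.0349). The scale of each replicate's values and any correction for depth are not stated, so they are set side by side only. Which of a pair of neighbouring genes an upstream peak belongs to cannot be told apart from its position.

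The summit windows of these upstream peaks, and the part of the gene-end window of pos-1 that lies outside genes, are shown because, of the summit windows of the 8 conservative peaks, these stretches lie in no annotated gene. They run 50 bp to each side of the summit on the plus strand, the strand of all 4 genes: II:11968391-11968491 for mex-1, V:8413778-8413878 and, past the end, V:8415255-8415322 for pos-1, V:8028940-8029040 for oma-2 and IV:13353375-13353475 for mex-5. Capitals mark matches to any of 6 motifs.
mex-1 upstream: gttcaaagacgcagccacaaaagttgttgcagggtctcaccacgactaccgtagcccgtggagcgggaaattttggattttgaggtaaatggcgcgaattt
pos-1 upstream: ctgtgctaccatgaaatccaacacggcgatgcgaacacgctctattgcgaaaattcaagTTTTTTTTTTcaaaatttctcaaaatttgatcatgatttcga
pos-1 past the end: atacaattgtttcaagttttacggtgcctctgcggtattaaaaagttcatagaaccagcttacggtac
oma-2 upstream: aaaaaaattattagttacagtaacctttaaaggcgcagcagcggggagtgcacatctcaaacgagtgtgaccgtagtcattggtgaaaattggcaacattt
mex-5 upstream: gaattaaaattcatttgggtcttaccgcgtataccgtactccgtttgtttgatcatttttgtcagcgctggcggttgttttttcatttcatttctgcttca

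The motifs, sought on both strands within 50 bp of the summit, were GATAAG (in 4.16% of all 2742 conservative peaks), CACGTG (3.68%), TATAAA (5.73%), GAGAGA (13.9%), TATTTAT (2.95%) and TTTTTTTT (4.89%). Of the 8 member peaks, 2 held GAGAGA, those in the coding sequence of mex-5 and pie-1, and 1 held TTTTTTTT, the upstream peak of pos-1. The other 4 motifs were in none of the 8 windows. The GC content of the 8 windows ran from 35.6% at the upstream peak of pos-1 to 52.5% at pie-1, against a median of 44.6% and quartiles of 38.6% and 51.5% over all conservative peaks.

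The strongest peak of all lay at a gene end, that of pos-1, and it was the only member peak in both replicates' own lists. It was at V:8415112-8415431 with its summit 18 bp past the annotated end of pos-1, and its signal was 132. Replicate 1 gave 57.0 (rank 680 of 55886 ranked regions) and replicate 2 gave 59.0 (rank 422 of 53072). The next gene, lmd-3, points toward pos-1 from 393 bp beyond it and has the same peak in its window. By the rule of smallest distance over log2 signals in the 3 data sets, among 2616 genes with a value in each, the genes most like pos-1 were lmd-3 (distance 0, the shared peak), C37A2.8 (130, 57.6 and 58.3 for both together, replicate 1 and replicate 2) and maph-1.2 (126, 57.4 and 58.8). The tagged gene had no conservative peak, so the same comparison gave nothing for it.

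The other 3 peaks lay inside or past the later part of genes. In pie-1, which encodes the germ-line transcriptional repressor, the peak at III:12428863-12429182 (signal 68.6) had its summit in coding sequence 172 bp before the gene end and 310 bp past the start of a short second transcript. Replicate 1 gave 48.2, in its own list. Replicate 2 gave 22.0 (IDR 0.028), and the latter was not in the list of replicate 2. The gene end of pie-1 overlaps that of snr-6, a small nuclear ribonucleoprotein gene on the opposite strand, by 24 bp. In mex-1 the second peak, at II:11972427-11972746 (signal 64.9), was 257 bp past the end, in an intron of acbp-6, an acyl-CoA-binding protein gene whose end overlaps that of mex-1 by 18 bp. Replicate 1 gave 26.3 there (IDR 0.49) and replicate 2 gave 42.0 (IDR 0.0232). In mex-5 the second peak, at IV:13355347-13355666 (signal 60.9), was in coding sequence 597 bp before the gene end, within reach of the window of W02A2.8 as well. It gave 32.5 in replicate 1 (IDR 0.12) and 22.9 in replicate 2 (IDR 0.647).

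The 8 member peaks were also looked up in the lists of single replicates, as a description only. Of the 8, 1 overlapped a thresholded peak of each replicate, against 29.1% of all conservative peaks. There were 2 that overlapped a peak of a single replicate, against 28.5%, and 5 that overlapped neither, against 42.4%. Counted by gene, pos-1, mex-5 and pie-1 had a peak in the 1393 of replicate 1, where 7.64% of coding genes had, and pos-1, mex-1 and oma-2 in the 1276 of replicate 2, where 6.91% had. Only pos-1 was in both, and the share of all coding genes in both lists was not counted.

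**Figure D2:**
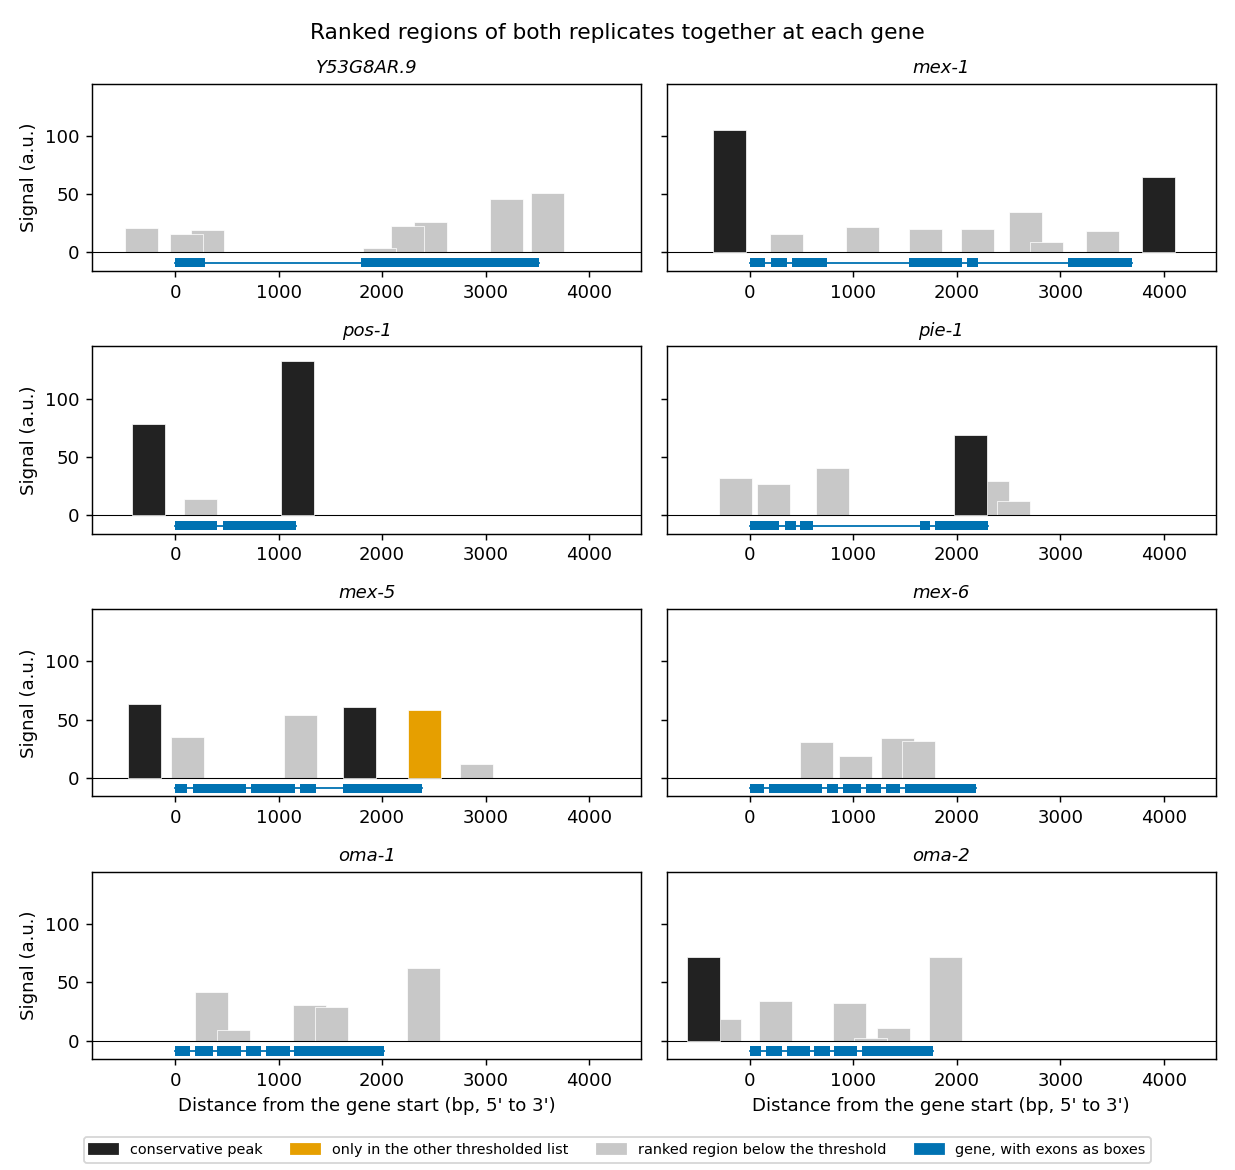
Ranked regions of both replicates together (signal in arbitrary units, bar width to scale) against distance from each gene's start in bp, 5′ to 3′, with exons as blue boxes; regions more than 500 bp outside a gene are not drawn. Black bars mark the 8 conservative peaks, of which 4 lie before a gene start, and the orange bar at the end of mex-5 (58.1) is in the authors' other thresholded list only.

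Some regions at gene ends passed the threshold of certain lists only. The conservative peak past the end of mex-1 was not in the other series-wide thresholded list, where its IDR was 0.0457. At the end of mex-5, IV:13355977-13356296 had a signal of 58.1 and an IDR of 0.0107 in the comparison of the replicates, just outside the threshold, and it was in the other series-wide thresholded list. Replicate 1 gave 49.9 there, in its own list, and replicate 2 gave 20.6. At the end of oma-2, V:8031173-8031492 had a signal of 72.1, above that of the upstream peak, but an IDR of 0.173. Replicate 2 gave 33.5 there, in its own list, and replicate 1 gave 27.8. The coding sequence peak of mex-5 stood just inside the threshold, with a score of 833 where the lowest in the list was 830.

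Below the threshold, all 8 genes still had ranked regions, 48 in all among the 87350 of both replicates together. Over the 14802 coding genes with a ranked region, the median of the strongest signal was 35.7, and 7 of the 8 genes stood above it. The exception was mex-6. In replicate 1 all 8 stood above the median of 21.9, and in replicate 2 all 8 stood above 18.2.

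The genes without a conservative peak differed in how near they came. For oma-1 the strongest region, at IV:8891212-8891531, was 373 bp past its end and just before the start of spr-2, with a signal of 62.4 and an IDR of 0.0143. Replicate 1 gave 24.9 (IDR 0.689) and replicate 2 gave 28.5 (IDR 0.0376) there. In the other series-wide ranked list the IDR of this region was 0.134. For Y53G8AR.9 the strongest region, at III:3317492-3317811, was 73 bp past its end, in the 3′ UTR of ral-1, a small GTPase gene on the opposite strand that ends 8 bp away. Its signal was 51.2 and its IDR 0.0209, with 28.6 in replicate 1 (IDR 0.0721) and 21.0 in replicate 2 (IDR 0.103). The region of replicate 2 only overlapped it, with a summit 250 bp past the gene end, in the coding sequence of ral-1. In the other series-wide ranked list, III:3317492-3317811 had an IDR of 0.633, so its nearness to the threshold depended on the list. The best region at the start of the tagged gene had a signal of only 20.8. For mex-6 the strongest region, at II:9525440-9525759, lay inside the gene with a signal of 34.1. The replicates gave 28.1 and 8.57, and the IDR was 0.596, or 0.538 in the other series-wide ranked list. The value of replicate 2 came from an overlapping region with its summit outside the combined one. Both pairs of close relatives were thus divided, with a conservative peak at oma-2 (71.4) and mex-5 (63.6) and none at oma-1 (62.4 at best) or mex-6 (34.1 at best). The division of oma-1 from oma-2 rests on the window: with 250 bp or 0 bp on either side, or with each peak given to the nearest coding gene only, oma-2 had no peak either. Neither conservative peak of mex-5 was in a replicate's own list, though the region at its end was in that of replicate 1. With the upper 50% of peaks by signal, or with the list of replicate 2 alone, mex-5 had no peak either.

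Starts and ends of the genes were compared through the strongest ranked region with a summit within 500 bp of each. At starts the signal was 105 in mex-1, 78.5 in pos-1, 71.4 in oma-2, 63.6 in mex-5, 41.6 in oma-1, 31.5 in pie-1 and 20.8 in Y53G8AR.9, against a median of 26.2 over the 11675 coding genes with such a region. At ends it was 132 in pos-1, 72.1 in oma-2, 68.6 in pie-1, 64.9 in mex-1, 62.4 in oma-1, 58.1 in mex-5 and 51.2 in Y53G8AR.9, against a median of 27.9 over 12301 genes. At starts Y53G8AR.9 lay below the median gene, at ends all 7 lay above it, and mex-6 had no ranked region at either. The end signal was higher than the start signal in 5 of the 7, against 50.9% of the 9768 coding genes with both. In replicate 1 it was higher in 5 of 7 members, against 47.8% of coding genes, and in replicate 2, where mex-6 also had regions, in 4 of 8, against 48.7%. The shares of all coding genes include genes where the same region lay near both start and end, counted as not higher. No member had such a tie, so members and all genes are not fully alike in this count. Y53G8AR.9, pos-1 and oma-1 had the higher signal at the end in all 3 data sets, and mex-1 at the start in all 3. The members' medians were 63.6 at starts and 64.9 at ends for the replicates combined, 35.7 and 28.6 in replicate 1, and 27.9 and 25.3 in replicate 2, so their order was not the same in the 3 data sets. By summits of conservative peaks, 5 members had a peak within 500 bp of an annotated start, the short transcript of pie-1 included (6.5% of all coding genes), 3 within 500 bp of the gene end (6.99%) and 3 near both (2.17%). These counts take the start of any transcript. For pie-1 a single peak counted at both, 310 bp past the start of its short transcript and 172 bp before the gene end. Neighbouring genes were close at most ends: ral-1 and W02A2.8 ended 8 bp from Y53G8AR.9 and mex-5, snr-6 and acbp-6 overlapped pie-1 and mex-1, and vars-1 began 196 bp past oma-2. How much of the end signal belongs to these neighbours was not tested.

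**Figure D3:**
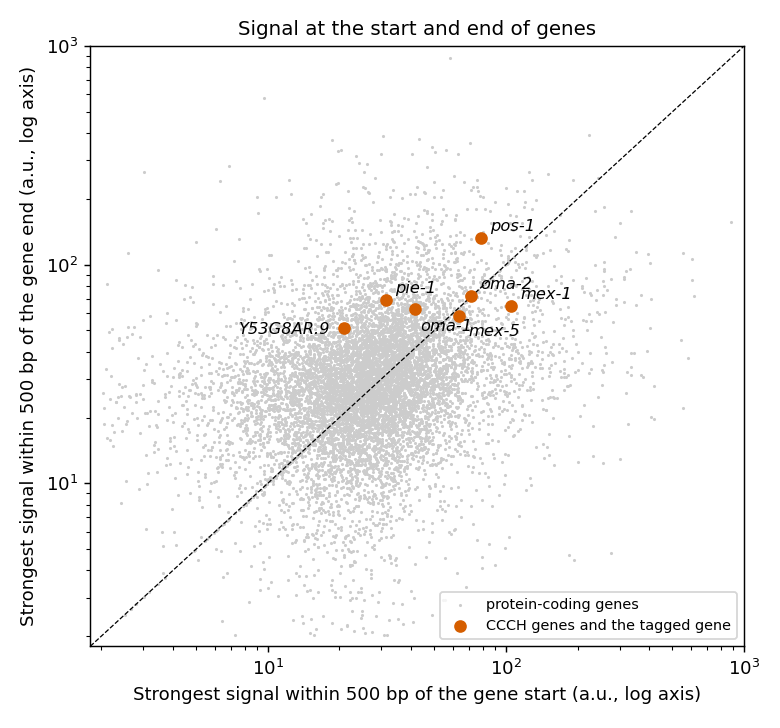
Strongest signal of both replicates together within 500 bp of the gene start (x axis) and end (y axis), in arbitrary units on log axes, for the 9768 coding genes with a ranked region at both (grey) and the 7 members with both (orange); the dashed line marks equal signals. At ends the members lie between 51.2 and 132, and 5 of 7 lie above the line.

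Genes with like protein matches and genes of the same stage were counted by the same rule. Of 11 other genes whose protein held at least 2 matches to the spacing 8, 5 and 3, 2 had a conservative peak (18.2%, against 13.1% of coding genes). A match is not proof of a CCCH finger, and the 11 include ced-1, a transmembrane engulfment receptor. The genes with a peak were ccch-1 and moe-3, the latter also known from oocytes. The peak of ccch-1 lay in an intron, with a signal of 73.5 (44.1 in replicate 1 and 46.2 in replicate 2). That of moe-3, also in an intron, had a combined signal of 11.3. The replicates gave 31.0 and 28.5 at moe-3, neither in its own list. Of 50 regulators of the oocyte and early embryo written as a list by name, 27 did (54.0%), with a median of 88.0 for their strongest peaks. The 8 strongest were ifet-1 (396, a peak shared with the ribosomal protein gene rps-1), the Y-box gene cey-2 (160, shared with F46F11.7), the RNA granule genes car-1 (152) and cgh-1 (122), the Pumilio-family gene puf-3 (117, in an intron of afmd-2), the polarity gene par-3 (114) and the P granule genes pgl-1 (109) and pgl-3 (107). Of these, cey-2, cgh-1, pgl-1 and pgl-3 had the summit 91 to 222 bp past the gene end, and car-1 had it 28 bp before the end. Some listed genes are long, which widens their windows, and the list was chosen with results of these data known.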

How the data were processed

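ChIP-seq peak lists of 2 biological replicates of 1 group were used, 8 lists in all. They hold no read counts, which leaves sequencing depth unknown, and no interval could be given. The chromatin was sheared to 200 to 800 bp, per the labels. Per the deposited text descriptions, the lists are on ce11 and were made from alignments after filtering, set against a control. The thresholded lists had an additional input that is not described. Which aligner and peak caller were run, and in which versions, is not given in the sources used here. Each deposited signal is the authors' value per peak, of unstated scale. The deposited score is the authors' IDR on an integer scale, and the deposited ranked lists also hold it as −log10 values.

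Peaks were placed on WBcel235 with Ensembl release 115, after a check that 0 regions ran past a chromosome end. A gene's peaks are those that touch the gene or 500 bp on either side. Replicate values are the strongest overlapping region of each replicate's ranked list. Proteins are the longest RefSeq coding sequence of each gene, translated here, and identities come from global alignment (Biopython 1.88, Python 3.11.15). Counting functions were checked on made-up intervals. Members, gene lists, motifs and distances were chosen with earlier results of these data known. The genes named are all 8 members, every gene with a peak among the 11 with 2 or more matches of the strict spacing, the 8 strongest regulators, the 3 genes nearest to pos-1 and the genes sharing a member's peak. Further neighbours (ral-1, spr-2, vars-1) and ced-1 were named after the values were seen. Other window widths, lists and gene assignments were tried as alternatives. The comparison of starts with ends was added after the values were seen.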

Additional observations from a re-analysis of the deposited data

How the results depend on the processing

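The count of 5 members with a conservative peak was 4, without oma-2, with 250 bp on either side (11.9% of coding genes by the same rule) or with each peak given to the nearest coding gene only (8.96%). It was 5 with 1000 bp (14.8%), with the summit required in the window (12.4%), with the other series-wide list (13.2%) and with windows at annotated starts only (6.5%). It fell to 3 with 0 bp on either side (mex-5, pos-1 and pie-1, against 8.18% of coding genes) and to 3 with the upper 50% of peaks by signal (mex-1, pos-1 and oma-2, against 8.23%). With the list of either replicate alone, that is without replicate 2 or without replicate 1, it was 3 each time (against 7.64% and 6.91% of coding genes). Only pos-1 was in both counts, and the share of coding genes in both was not counted. The strongest signal of mex-1 rose to 124 with 1000 bp, by taking in a further peak upstream. The other 22 signal values recomputed moved by less than the spread between replicates or not at all. For the swaps of list this was no check, since those lists hold the same strongest regions with the same signals. Of other genes with finger matches, 21 of 98 (21.4%) had a peak with at least 1 match of the looser spacing and 4 of 22 (18.2%) with at least 2, against 13.1% of coding genes, the latter list chosen after seeing the data. The 27 regulators were also 27 with 1000 bp. No paired analysis was possible because there is 1 group. Depth is unknown, so a gene without a peak is not shown to lack binding.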

Other observations

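The genes named here were chosen after their values were seen. The looser finger spacing also matched proteins that are not known for CCCH fingers. Of its 98 genes, the strongest peaks were at lin-54 (368, shared with the ribosomal protein gene rpl-12), which encodes a DNA-binding subunit of the DREAM complex, and at lin-12 (153, shared with gst-1), a Notch receptor gene. Among the 22 genes with at least 2 such matches, T26A8.4 had a signal of 126 with its summit 188 bp past the gene end, a peak shared with tmem-231, and unk-1 had 74.8 in an intron.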
